A study of Homo sapiens with 16 samples.

Results

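The regions described here are stretches of open chromatin in THP-1 cells that lie on a DNA transposon. The line grew from the blood of a patient with acute monocytic leukemia. A region is a 1000 bp window around a merged ATAC-seq peak, and it was taken when the deposited annotation put its centre in a repeat of the class DNA. This held for 3890 of 151654 regions. They carried 192 repeat names in 17 families. The choice used the annotation alone and no measured value, and 11 regions with an uncertain DNA class were left out.

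DNA transposons moved by cut and paste through a transposase, unlike retrotransposons, which are copied through RNA. In the human genome they are immobile relics, mainly of the hAT superfamily (Charlie, Tip100, Blackjack and short derivatives such as MER20) and the Tc1/mariner superfamily (Tigger and short derivatives such as MER44). H3K27ac is an acetylation of histone H3 found at active promoters and enhancers. Type I interferon (IFN) signals through transcription factors that bind the IFN-stimulated response element (ISRE), and USP18 restrains the signal at the IFN receptor.

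H3K27ac was measured by ChIP-seq in 4 groups of 2 libraries. WT cells carried Cas9 with no USP18 guide, and USP18-/- cells carried Cas9 and a guide to USP18 and were grown from sorted single cells, so the clone and the genotype cannot be told apart. Each genotype was untreated or treated with human IFNα at 1000 U/ml for 6 h. The study's methods describe the libraries of a group as biological replicates of the cell line. The p-values rest on the spread between libraries of the same group, estimated over the 4 groups together and with information from all tested regions. All values come from cell populations, in which fewer cells with a mark and less mark per cell cannot be told apart.

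Library totals lay between 9046141 and 12935453.5 tags over all regions. The regions on DNA transposons took 1.42% to 1.47% of these tags in WT libraries and 1.24% to 1.27% in USP18-/- libraries. Of 10 monocytic marker genes, 9 had a region within 1000 bp of the transcription start site (TSS) and 8 of these exceeded 5 CPM (tags scaled to library size, as defined below). FCGR1A had none. Of 13 markers of other cell types, 3 had a region, and each was under 5 CPM. The region at the USP18 TSS does not check the edit, since H3K27ac there says nothing about the coding sequence.

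Among the members, copies of 1 short element, MER107, and of MER44A carried an ISRE match inside the peak. A match to the ISRE was defined as TTTCNNTTTC on either strand in the central 200 bp of a region. The following sites of hg38 are printed 5′ to 3′ on the strand that reads TTTC, with the match in capitals and 15 bases on each side. They are shown so that the letters around the match can be compared among 5 MER107 copies and among 3 MER44A copies.
MER107 near SNORA105A, chr2:197472309-197472348, + strand: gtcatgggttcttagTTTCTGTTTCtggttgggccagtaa
MER107 near LOC729291, chr12:28543438-28543477, + strand: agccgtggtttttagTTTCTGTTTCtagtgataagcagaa
MER107 near CUX1, chr7:101747184-101747223, + strand: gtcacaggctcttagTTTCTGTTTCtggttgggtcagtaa
MER107 near TNFRSF11A, chr18:62280971-62281010, + strand: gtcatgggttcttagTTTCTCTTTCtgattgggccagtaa
MER107 near CCT2, chr12:69591753-69591792, + strand: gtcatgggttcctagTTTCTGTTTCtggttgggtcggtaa
MER44A near LEMD3, chr12:65189217-65189256, - strand: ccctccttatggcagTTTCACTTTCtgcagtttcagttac
MER44A near TMEM170B, chr6:11547055-11547094, - strand: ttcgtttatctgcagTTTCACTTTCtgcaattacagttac
MER44A near NEIL3, chr4:177316202-177316241, - strand: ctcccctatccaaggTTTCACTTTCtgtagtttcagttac

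The flanking bases of the 14 MER107 carriers were 62.3% identical on average over pairs, and those of the 20 MER44A carriers 51.1%. Carriers outside repeats gave 26.6%. An ISRE match was present in 14 of 18 MER107 regions (77.8%) and in 48.8% of MER44A regions. It was present in 28.9% of MER44C, 23.5% of MER44D, 21.2% of Tigger7, 19.4% of Tigger1 and 17.4% of MER44B regions. Among all DNA transposon regions the share was 7.46% (290 regions), beside 5.43% of all regions. In MER20, the most frequent name with 559 regions, it was 0.537%.

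Other names carried other letters. The AP-1 motif TGANTCA, bound by FOS and JUN family proteins, was found in 60.9% of MER44B, 54.5% of Tigger7 and 52.9% of MER44D regions, beside 18.4% of all DNA transposon regions and 12.9% of all regions. MER44A had no AP-1 match in its 41 regions. The C/EBP motif TTGCNNAAT, bound by a family of myeloid transcription factors, was found in 50.0% of Tigger3a, 37.4% of MER20 and 23.5% of Tigger3b regions, beside 14.6% of DNA transposon regions and 5.47% of all regions. Tigger7 near MIR579 (mean 66.2 CPM) and MER44B near HOMER3 (57.9 CPM) are among the copies with the most H3K27ac but are not printed. Under IFN they were lower in USP18-/- than in WT cells (log2 fold change -0.75 and -0.30), short of the threshold for a call. The printed AP-1 copies were higher there, as were unprinted ones near DCTD, MARK3 and IGFL2-AS1. The following copies are also among those with the most H3K27ac, though not chosen by level alone, and show where the match lies, again in capitals.
MER44B near LOC100288798, chr12:46549953-46549989, + strand: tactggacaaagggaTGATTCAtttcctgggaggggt
MER44B near PGLS, chr19:17508032-17508068, + strand: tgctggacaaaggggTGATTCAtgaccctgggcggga
Tigger7 near RPL23AP32, chr2:54533152-54533188, + strand: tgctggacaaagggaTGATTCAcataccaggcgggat
MER20 near MIR7854, chr16:81548871-81548909, + strand: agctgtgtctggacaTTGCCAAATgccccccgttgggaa
Tigger3a near ALAS1, chr3:52210860-52210898, - strand: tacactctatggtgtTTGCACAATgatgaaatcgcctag

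Average flank identity was 44.4% for MER44B and 42.7% for Tigger7 around AP-1, and 25.3% for carriers outside repeats. It was 54.7% for MER20 and 38.6% for Tigger3a around C/EBP, and 25.5% outside repeats. The letters of an ISRE match can also be part of a match to the composite PU.1:IRF8 motif GGAANNGAAA. A match is a description of the sequence and not a bound site, and the lack of one says only that these letters are not in the window.

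**Figure D1:**
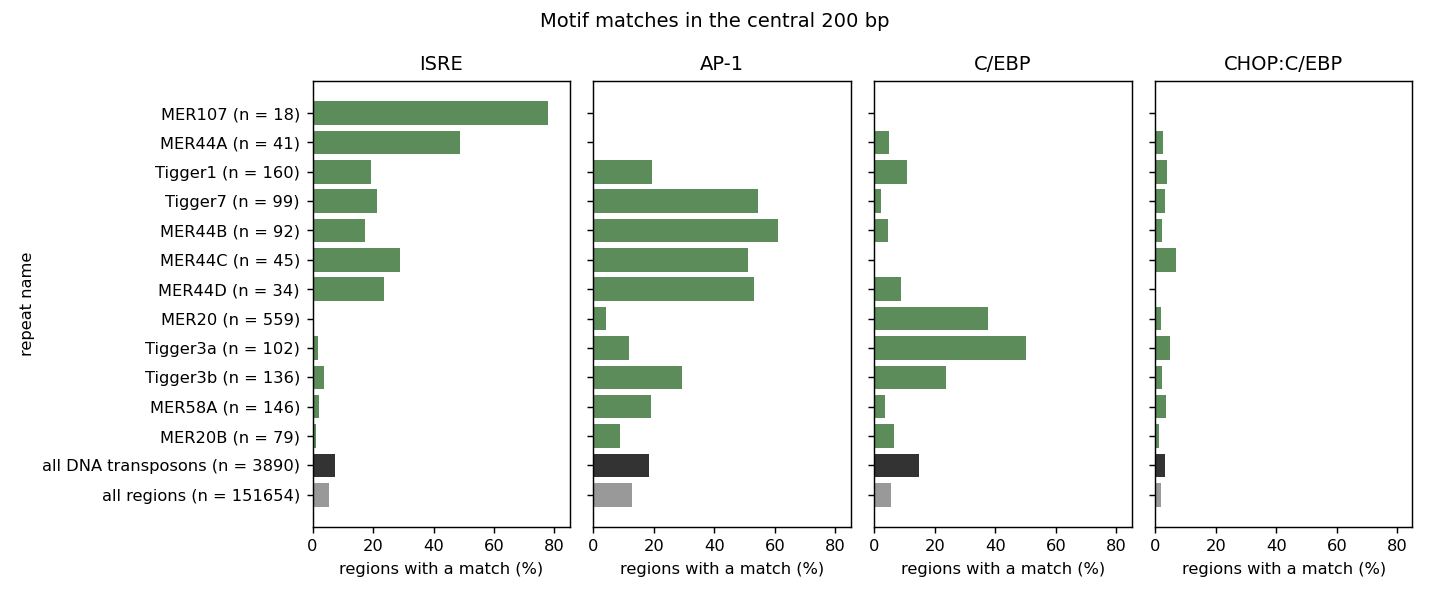
Share of regions (%) with a match to each of 4 motifs in the central 200 bp, for 12 repeat names, all DNA transposon regions and all regions, with the number of regions in brackets. ISRE matches are most frequent in MER107 (77.8%) and MER44A (48.8%), AP-1 matches in MER44B (60.9%), and C/EBP matches in Tigger3a (50.0%) and MER20 (37.4%).

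Of the 3890 regions, 2149 were intronic and 1741 intergenic by the deposited annotation, and 138 lay within 3000 bp of a TSS. Their median distance to the nearest TSS was 32335 bp, beside 20667 bp for all regions. Their median GC content was 44%, beside 49%. The largest families were hAT-Charlie with 1816 regions, TcMar-Tigger with 1284 and hAT-Tip100 with 458. After MER20, the most frequent names were Tigger1 (160 regions), MER58A (146), Tigger3b (136), Tigger3a (102), Tigger7 (99) and MER44B (92).

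H3K27ac on these regions was low. The median level was 1.14 CPM, where CPM is the tag count per 1e6 tags of a library size scaled by edgeR's TMM factors, beside 1.51 CPM for all regions, and 330 regions exceeded 10 CPM. Regions on LTR retrotransposons gave a median of 1.09 CPM and those on L2 and MIR retrotransposons 1.35. Intronic or intergenic regions outside repeats gave 1.25, so a low level was shared with these classes. A region was tested when 2 or more of the 8 libraries held 10 counts or more, which 2929 of 3890 (75.3%) passed, beside 81.3% of all regions. The other 961 were not tested. The counts below describe the tested regions. A region was called when its log2 fold change exceeded 1 in size with an adjusted p under 0.05. All adjusted p-values come from edgeR's quasi-likelihood test and were adjusted by the Benjamini-Hochberg method over 123276 tested regions.

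The highest levels stood on 3 regions. MER112 near FRAT2 gave 82.4 and 87.4 CPM in untreated WT, 88.7 and 89.8 in treated WT, 125 and 112 in untreated USP18-/- and 157 and 154 in treated USP18-/- cells. It was higher in every USP18-/- library than in any WT library, with fold changes short of the threshold (log2 0.80, SE 0.08, under IFN). Charlie1b near SLC1A3 gave 111, 118, 114 and 119 CPM in the WT libraries in the same order, 58.3 and 54.9 in untreated USP18-/- and 45.8 and 43.2 in treated USP18-/- cells. It fell in untreated USP18-/- cells (log2 -1.02, SE 0.09, adjusted p = 4.73e-17), where the median of the other tested regions within 5 Mb was -0.76. MER44B near LOC100288798, printed above, is described with its group below.

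IFN changed few of these regions in WT cells. Of 2929 tested regions, 11 rose (0.376%) and 1 fell, beside 0.344% and 0.0381% of all tested regions. At an unadjusted p under 0.05, 126 were higher and 133 lower. Without untreated WT replicate 1, and likewise without replicate 2, 5 regions rose, and without either of the treated WT libraries 7 rose. The single fall was lost without any 1 of these 4 libraries.

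The largest rise in WT cells was on a Tigger13a copy 76973 bp upstream of MYO10, which encodes an unconventional myosin of filopodia (chr5:17012749-17013749, intergenic). It gave 2.07 and 2.45 CPM in untreated WT, 9.51 and 8.31 in treated WT, 0.524 and 1.06 in untreated USP18-/- and 39.1 and 31.9 in treated USP18-/- cells. Treated and untreated libraries did not overlap in either genotype, and the treated USP18-/- libraries were highest. The log2 rise was 1.97 in WT cells (SE 0.24, adjusted p = 3.21e-09) and 5.49 in USP18-/- cells (SE 0.24, adjusted p = 2.46e-35). The difference of the IFN effects was 3.52 (SE 0.42, adjusted p = 2.06e-10). In this window, 27.7% of the 32-base words occur more than once in hg38. Its central 200 bases hold an AP-1 match, in capitals, and no ISRE match as defined here. They are printed because this region had the largest IFN effect of the named regions in both genotypes.
Tigger13a near MYO10, chr5:17013150-17013349, + strand: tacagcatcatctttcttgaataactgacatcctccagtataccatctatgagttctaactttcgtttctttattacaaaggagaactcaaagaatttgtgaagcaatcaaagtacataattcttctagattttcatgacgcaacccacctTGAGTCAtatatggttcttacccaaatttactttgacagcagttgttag

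The other WT responses that were named are smaller and rest on few tags. MER44D 397414 bp downstream of the PPP1R3A start gave 0.930 and 0.545 CPM untreated and 2.28 and 2.67 CPM treated, and rose by 1.75 (SE 0.41, adjusted p = 0.0105). Arthur1 in an intron of ABTB2 gave 1.55 and 1.54 CPM untreated and 4.46 and 4.21 treated, and rose by 1.48 (SE 0.31, adjusted p = 0.00217). In USP18-/- cells the same Arthur1 copy went from 2.36 and 1.06 CPM to 30.0 and 24.3, a rise of 3.96 (SE 0.22, adjusted p = 2.70e-28). Tigger7 3843 bp upstream of GPR83, with an ISRE match, rose by 1.73 in WT (SE 0.44, adjusted p = 0.0261). The region that fell was a MER20 copy in an intron of NT5DC3, with 5.99 and 6.44 CPM untreated and 3.57 and 2.46 treated (log2 -1.04, SE 0.26, adjusted p = 0.0252). The calls near GPR83 and NT5DC3 were lost without any 1 of the 4 WT libraries, with adjusted p from 0.0851 to 0.470 and from 0.0619 to 0.451. The call near PPP1R3A was lost without untreated replicate 2 (adjusted p = 0.367) or either treated library (0.0579 and 0.176), and that near ABTB2 without either untreated library (0.0694 and 0.0998) or treated replicate 1 (0.0707). DESeq2 did not call the copy near GPR83 (adjusted p = 0.0946).

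In USP18-/- cells IFN changed far more of them. Of 2929 tested regions, 248 rose (8.47%) and 138 fell (4.71%), beside 7.14% and 4.28% of all tested regions. The median log2 fold change was -0.03, beside -0.01 for all. With libraries scaled by their sum of counts, 221 rose and 206 fell. That scaling moved the median of all tested regions to -0.14, so the balance of rises over falls depends on the scaling.

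Regions with an ISRE match made up a large share of the rises. Of 250 tested carriers on DNA transposons, 91 rose (36.4%) and 4 fell, with a median log2 fold change of 0.74. Of 2679 without a match, 157 rose (5.86%) and 134 fell, with a median of -0.08. All tested regions with an ISRE match gave nearly the same values, with 2564 of 6929 rising (37.0%) and a median of 0.74. In WT cells, 2 of the 250 carriers rose (0.8%), beside 193 of all 6929 tested regions with an ISRE match (2.79%).

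**Figure D2:**
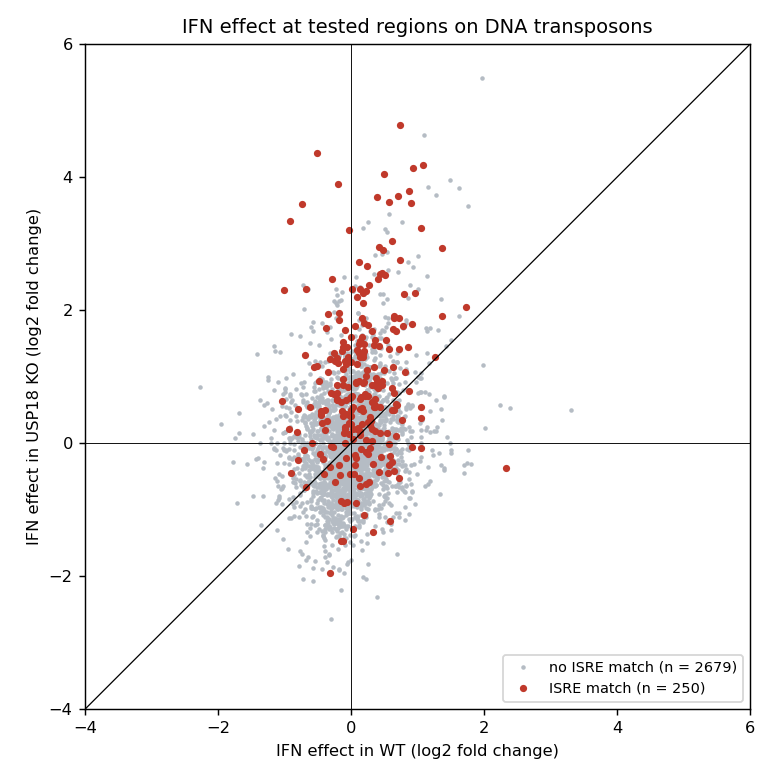
Log2 fold change under IFN in WT (horizontal) and USP18-/- cells (vertical) for the 2929 tested regions on DNA transposons, with the 250 that hold an ISRE match in red and equality as a diagonal line. The red points have a median of 0.74 on the vertical axis, beside -0.08 for the grey points, and the point nearest the top is the Tigger13a copy near MYO10 at 1.97 and 5.49.

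MER107, a short hAT-Charlie element, had the highest share of rises of the names shown here. Its 18 regions are too few for the rule that named repeats, which needs 20 tested regions, and it was chosen after its values were seen. The ATAC-seq peaks were merged from 8 lists, and MER107 regions were in a median of 2, beside 6 for all DNA transposon regions. In USP18-/- cells 11 of 17 tested MER107 regions rose under IFN, with a median log2 fold change of 1.76 over the 17. By DESeq2 8 rose. Of the 11, the copies near LOC101928140 and LINC00639 would not have been tested without their treated USP18-/- libraries. Near LOC101928140 these libraries gave 3.28 and 3.85 CPM, beside at most 0.930 in the others. Near LINC00639 they gave 2.49 and 1.41 CPM, beside at most 1.45 in the others (log2 fold change 1.24, SE 0.48, adjusted p = 0.0474). Both copies hold an ISRE match. The edgeR test called 0 lower (1 at an unadjusted p under 0.05, 0 by DESeq2). In WT cells it called 0 higher, with 2 at an unadjusted p under 0.05 and 0 by DESeq2. Of the 14 tested regions with an ISRE match 10 rose, and of the 3 without 1 rose, near LOC103908605, where 41.9% of the 32-base words are repeated in hg38.

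The copy 14560 bp downstream of the SNORA105A start (chr2:197471843-197472843, intronic) gave 2.17 and 1.72 CPM in untreated WT and 3.96 and 2.46 in treated WT. It gave 0.873 and 1.73 CPM in untreated and 35.7 and 35.2 in treated USP18-/- cells. The treated USP18-/- libraries stood far above the other 6, which all lay under 4 CPM. The rise in USP18-/- cells was 4.78 on the log2 scale (SE 0.22, adjusted p = 2.61e-33), and in WT cells the fold change was 0.73 (SE 0.31, adjusted p = 0.413). In this window, 28.8% of the 32-base words are repeated.

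The copy 352748 bp upstream of LOC729291 gave 1.03 and 0.635 CPM in untreated WT, 1.19 and 1.13 in treated WT, 1.83 and 2.79 in untreated USP18-/- and 38.1 and 37.8 in treated USP18-/- cells. Again the treated USP18-/- libraries did not overlap the rest. It rose by 4.04 under IFN in USP18-/- cells (SE 0.19, adjusted p = 2.05e-32), and under IFN it was 5.02 higher in USP18-/- than in WT cells (SE 0.23, adjusted p = 3.57e-34), the largest such difference among the named regions. Repeated 32-base words made up 5.46% of this window.

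The remaining MER107 copies ranged widely. The copy near MIR7150 went from 0.785 and 0.481 CPM to 12.1 and 11.5 in USP18-/- cells (4.17, SE 0.31). The copy upstream of CUX1, which encodes a homeobox transcription factor, went from 1.57 and 3.37 to 22.9 and 22 (3.20, SE 0.23). The copy near TNFRSF11A, the gene of the receptor RANK, went from 0.611 and 0.770 to 4.97 and 4.22 (2.72, SE 0.37). These 3 passed the test, and in each the treated libraries did not overlap the untreated ones. The copy 81283 bp downstream of the start of IFNG, the interferon gamma gene, went from 0.960 and 0.674 CPM to 3.91 and 2.16 (1.87, SE 0.43, adjusted p = 0.000297). At the other end, the copy near CCT2, whose site is printed above, gave 0.960 and 0.577 CPM untreated and 1.15 and 1.31 treated, with a fold change of 0.66 (SE 0.50, adjusted p = 0.404). The printed letters of its match are the same as those near SNORA105A. The copy near C7orf25 has no ISRE match and was lower, with 6.46 and 7.22 CPM untreated and 3.91 and 3.66 treated (-0.85, SE 0.23, adjusted p = 0.00276), short of the fold threshold.

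**Figure D3:**
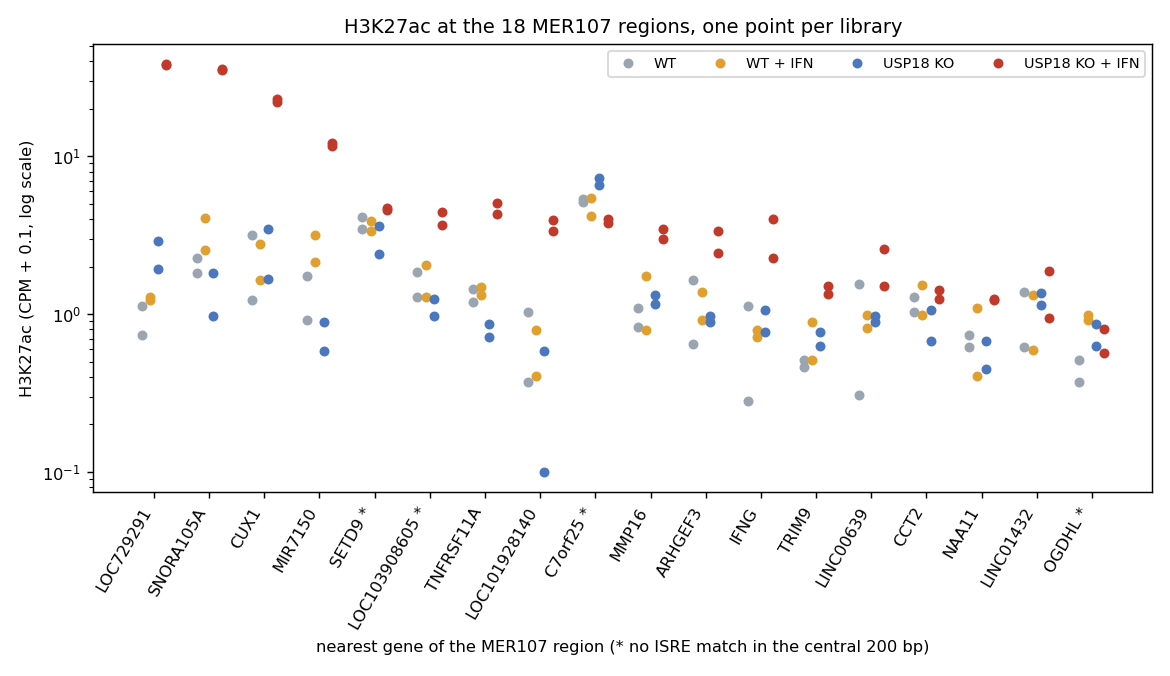
H3K27ac (CPM + 0.1, log axis) at the 18 regions on MER107, named by nearest gene, with 1 point per library in 4 groups of 2 libraries; a star marks a region with no ISRE match. In the regions near LOC729291, SNORA105A, CUX1 and MIR7150 the treated USP18-/- libraries lie above 11 CPM and the other 6 libraries below 4 CPM.

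Among names with at least 20 tested regions, MER44A had the highest share of rises under IFN in USP18-/- cells. Of 35 tested MER44A regions, 10 rose and 2 fell. Of the 17 with an ISRE match 8 rose, with a median of 0.91, and of the 18 without 2 rose and 2 fell. Overlapping windows near C12orf40 (chr12:39650529-39651529 and chr12:39650772-39651772) are both among the 8 and the 10, so this locus is counted more than once. The copy 19680 bp downstream of the start of LEMD3, an inner nuclear membrane protein gene, gave 4.24 and 4.17 CPM in untreated WT, 5.55 and 5.64 in treated WT, 7.24 and 7.22 in untreated USP18-/- and 60.2 and 51.6 in treated USP18-/- cells. The treated USP18-/- libraries were the highest, and the rise in these cells was 2.95 (SE 0.14, adjusted p = 4.27e-32). The copy near TMEM170B gave 6.20 and 6.64 CPM untreated and 33.7 and 37.2 treated in USP18-/- cells, a rise of 2.46 (SE 0.15, adjusted p = 3.18e-25).

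Tigger1, an autonomous element of the Tigger family, gave 18 rises and 3 falls among 136 tested regions. Of its 26 regions with an ISRE match 13 rose, with a median of 1.12, and of the 110 without 5 rose and 3 fell. Tigger7 gave 16 rises among 90 tested regions (17.8%), MER44B 10 among 85 (11.8%), MER44C 7 among 35 (20.0%) and MER44D 5 among 27 (18.5%). Tigger13a gave 7 rises among 27 (25.9%) and Charlie8 5 rises (22.7%) and 3 falls among 22. As families, TcMar-Tigger gave 117 rises (11.5%) and 32 falls (3.15%) among 1015, and hAT-Charlie 90 rises (6.71%) and 80 falls (5.97%) among 1341. Of all tested regions, 7.14% rose and 4.28% fell, so the share of rises in hAT-Charlie was near that of all regions.

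The large rises outside these names came from single copies. Kanga11a near DKFZP586I1420 gave 0.175 and 0.577 CPM in untreated and 10.2 and 8.45 in treated USP18-/- cells, a rise of 4.63 (SE 0.37, adjusted p = 6.23e-19). In WT cells it gave 0.930 and 0.726 CPM untreated and 1.29 and 2.26 treated, with a fold change of 1.09 (SE 0.44, adjusted p = 0.363). The treated USP18-/- libraries did not overlap the rest.

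Other copies lost H3K27ac under IFN in USP18-/- cells. Tigger4 127504 bp downstream of the start of PAPSS1, a sulfate donor synthase gene, gave 29.1 and 33.8 CPM in untreated WT, 26 and 25.2 in treated WT, 14.1 and 13.7 in untreated USP18-/- and 2.57 and 1.78 in treated USP18-/- cells. The levels stepped down from WT to untreated and then to treated USP18-/- cells with no overlap. The fall under IFN was -2.66 (SE 0.21, adjusted p = 2.85e-19) in USP18-/- cells, and the WT fold change was -0.30 (SE 0.13, adjusted p = 0.429).

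Tigger1 upstream of TMEM47 fell from 4.89 and 4.91 CPM to 0.799 and 1.31 (-2.21, SE 0.32, adjusted p = 1.09e-08), and MER1B in an intron of AJAP1 fell from 7.16 and 7.31 to 1.24 and 2.25 (-2.05, SE 0.28, adjusted p = 2.07e-09). The same MER1B copy gave 2.17 and 2.00 CPM in untreated WT, below untreated USP18-/- cells, and 18.8% of its 32-base words are repeated. hAT-N1_Mam near IMPA2, an inositol monophosphatase gene, gave 32.6 and 29.0 CPM untreated and 7.28 and 8.64 treated. By name, falls were most frequent in MER102b, with 5 of 29 tested regions, and MER58A gave 14 falls and 6 rises among 127. MER20 was balanced, with 16 rises and 17 falls among 362.

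Some regions on DNA transposons lay beside known IFN-stimulated genes. Of a list of 98 such genes, 12 were the nearest gene of 15 regions, of which 13 were tested. In USP18-/- cells 4 rose under IFN, and of 525 other tested regions nearest to list genes 228 rose and 10 fell. Both rising copies near OASL, a 2′-5′-oligoadenylate synthetase-like gene, are Kanga2_a, and their windows overlap. The one 21550 bp upstream went from 4.97 and 3.95 CPM to 33.5 and 30.6 in USP18-/- cells (2.84, SE 0.17, adjusted p = 7.63e-26) and from 3.10 and 3.72 to 4.66 and 4.82 in WT cells (0.47, SE 0.25, adjusted p = 0.589). The treated WT libraries lay between the untreated USP18-/- libraries and far under the treated ones.

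The copy 22361 bp upstream of OASL rose by 1.74 (SE 0.32, adjusted p = 8.16e-06). MER5A1 1314 bp downstream of the start of IFIT3, an antiviral RNA-binding protein gene, went from 1.05 and 1.06 CPM to 3.73 and 6.38 (2.25, SE 0.34, adjusted p = 7.84e-08). OldhAT1 5574 bp upstream of APOBEC3A, a cytidine deaminase gene, went from 1.75 and 1.25 to 5.95 and 5.16 (1.87, SE 0.31, adjusted p = 4.74e-07). The other 9, among them copies near ADAR, EIF2AK2 and PARP12, were not called.

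The IFN effects of both genotypes were also compared directly. The effect was larger in USP18-/- than in WT cells at 146 of 2929 regions (4.98%) and smaller at 86 (2.94%), beside 4.66% and 2.51% of all tested regions. With libraries scaled by their sum of counts the numbers were 118 and 120, so this balance turned with the scaling, which moved the median of all tested regions to -0.13. Of the 250 regions with an ISRE match, 56 had a larger (22.4%) and 4 a smaller (1.6%) effect in USP18-/- cells. Among all tested regions with a match the shares were 24.9% and 0.722%. Of the 2679 regions on DNA transposons without a match, 90 had a larger and 82 a smaller effect. MER107 gave 7 larger effects among 17 regions and MER44A 8 among 35.

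The KO comparisons that follow use the same untreated libraries as the IFN comparisons, so their values are set side by side and not counted as separate evidence. In untreated USP18-/- against untreated WT cells, 185 of 2929 regions were higher (6.32%) and 421 lower (14.4%), beside 5.66% and 10.8% of all tested regions. Among all tested regions over 3000 bp from a TSS, where most of these lie, the shares were 5.17% and 12.7%. The median was -0.17, beside -0.02 for all and -0.14 for those over 3000 bp from a TSS. Scaling by the sum of counts gave 140 higher and 518 lower, and a fit to regions far from a TSS gave 235 higher and 305 lower.

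Of the 185 higher regions, 61 lay on Tigger7 and the MER44 elements of the same family. Tigger7 had 24 higher and 9 lower among 90, MER44B 21 and 9 among 85, MER44C 8 and 1 among 35 and MER44D 7 and 2 among 27. MER44A went the other way, with 1 higher and 8 lower among 35, and the 8 include both overlapping windows near C12orf40. Together these 5 names gave 61 higher regions of 272 (22.4%) and 29 lower, beside 5.66% and 10.8% of all tested regions. The share is a description, since the names were put together after their values were seen. Of the 61, 58 also exceeded the median of the other tested regions within 5 Mb by more than 1, as did 163 of all 185. A call already needs a log2 fold change over 1, and the surroundings of the 61 had a median of 0.01, so the count of 58 adds little.

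In this group, 131 tested regions had an AP-1 match, of which 36 were higher and 10 lower, and 141 had none, of which 25 were higher and 19 lower. The 141 include all 35 tested MER44A regions, with 1 higher and 8 lower, so this split is in part one between names. Over all tested regions, 5.92% of those with an AP-1 match were higher and 11.9% lower, beside 5.63% and 10.6% of those without. The MER44B copy near PGLS, a gene of the pentose phosphate pathway, gave 18.4 and 19.9 CPM in untreated WT, 24.8 and 24.6 in treated WT, 48.2 and 46.7 in untreated USP18-/- and 78.0 and 74.4 in treated USP18-/- cells. USP18-/- libraries did not overlap WT libraries, with a log2 fold change of 1.31 untreated (SE 0.11, adjusted p = 3.68e-17) and 1.63 under IFN (SE 0.11).

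**Figure D4:**
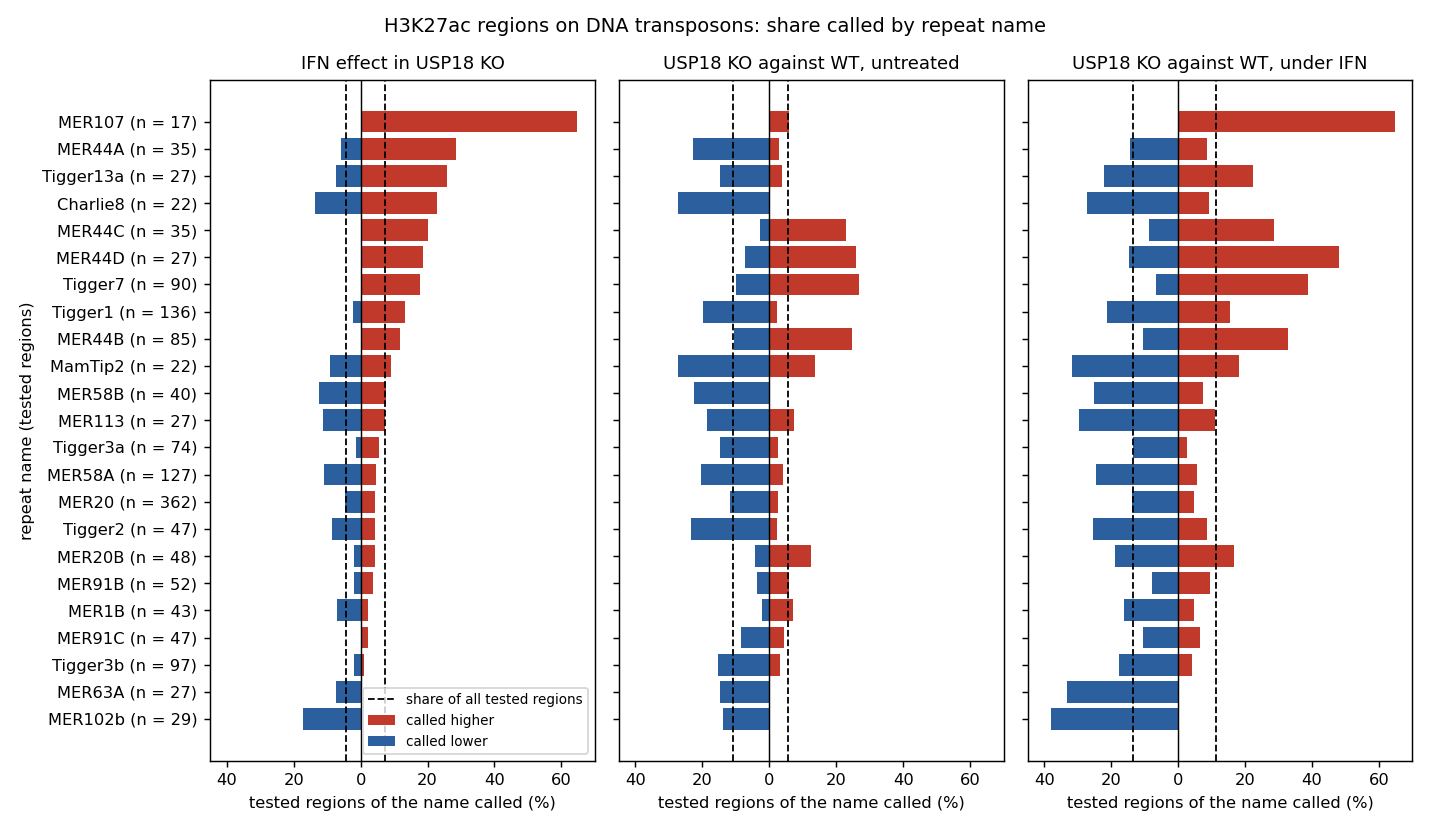
Share of tested regions called higher (red, to the right) and lower (blue, to the left) for repeat names, with tested regions in brackets, in 3 comparisons; dashed lines are the shares over all 123276 tested regions. MER107 and MER44A lead the rises under IFN in USP18-/- cells, while Tigger7, MER44B and MER44D have more higher than lower regions in USP18-/- cells against WT cells.

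Single copies of several names were far higher in untreated USP18-/- cells. MER103C in an intron of ZC3H4, a zinc finger protein gene, gave 1.45 and 2.54 CPM in untreated WT, 1.29 and 1.95 in treated WT, 20.6 and 23.2 in untreated USP18-/- and 19.1 and 19.9 in treated USP18-/- cells. The genotypes did not overlap and IFN moved neither past the test. The increase was 3.42 untreated (SE 0.21, adjusted p = 1.40e-24).

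MER20B in an intron of RELB, an NF-κB subunit gene, gave 0.517 and 0.908 CPM in untreated WT, 1.68 and 1.95 in treated WT, 8.81 and 10.2 in untreated USP18-/- and 9.14 and 7.98 in treated USP18-/- cells. It was 3.69 higher untreated (SE 0.31, adjusted p = 1.13e-17), and the genotypes did not overlap. The median of regions within 5 Mb was 0.39 here and 0.38 near ZC3H4. MER44B in an intron of MFSD14C was 2.90 higher (SE 0.33, adjusted p = 3.22e-12), but 67.4% of the 32-base words in its window occur more than once in hg38.

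Several copies were far lower in untreated USP18-/- cells. Tigger3b near LOC105374194, with 2 C/EBP matches, gave 11.4 and 10.3 CPM in untreated WT and 0.785 and 0.289 in untreated USP18-/- cells (-4.27, SE 0.34, adjusted p = 5.65e-19).

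MER96 near UGT3A2 gave 59.6 and 59.3 CPM in untreated WT, 41.9 and 38.2 in treated WT, 4.10 and 4.14 in untreated USP18-/- and 2.57 and 2.16 in treated USP18-/- cells. The genotypes were far apart, and the decrease was -3.85 (SE 0.15, adjusted p = 9.89e-38), where the median of regions within 5 Mb was -0.76. Tigger6a near F13A1, which encodes the coagulation factor XIII A chain, went from 9.40 and 8.35 to 0.960 and 0.481 CPM (-3.58, SE 0.32, adjusted p = 1.59e-16). Over all 421 lower regions on DNA transposons, 341 were also more than 1 below their surroundings, and the median of those surroundings was -0.13. A call already needs a log2 fold change over 1 in size, so the count of 341 adds little. Whether a change in DNA copy number took part was not tested.

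C/EBP matches went with lower H3K27ac in untreated USP18-/- cells. Of 416 tested regions on DNA transposons with a match, 76 were lower and 16 higher, with a median of -0.34, and of 2513 without a match 345 were lower and 169 higher, with a median of -0.13. All 6729 tested regions with a match gave a median of -0.34 as well, with 1283 lower and 263 higher. In MER20, the 145 regions with a match gave 23 lower and 3 higher (median -0.52), and the 217 without gave 20 lower and 6 higher (median -0.08). The MER20 copy near MIR7854, printed above, gave 28.6 and 26.3 CPM in untreated WT and 21.2 and 26 in untreated USP18-/- cells, which nearly met, and fell to 6.92 and 10.0 under IFN (-1.48, SE 0.15, adjusted p = 1.34e-13).

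Under IFN, the genotypes differed at more regions. Of 2929, 339 were higher (11.6%) and 510 lower (17.4%) in USP18-/- cells, beside 11.3% and 13.4% of all tested regions and 10.3% and 15.7% of those over 3000 bp from a TSS. Scaling by the sum of counts gave 243 higher and 725 lower, with a median of all tested regions of -0.27. A fit to regions far from a TSS gave 391 higher and 384 lower, so the excess of lower regions did not hold under it. Regions with an ISRE match gave 85 higher (34%) and 20 lower (8%) among 250, beside 33.4% and 7.43% of all tested regions with a match. Those on DNA transposons without a match gave 254 higher and 490 lower.

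Tigger7 and MER44A to MER44D gave 89 higher (32.7%) and 27 lower regions of 272. Of the 89, 81 also exceeded their surroundings by more than 1, as did 305 of all 339 higher regions on DNA transposons. A call already needs a log2 fold change over 1, and the surroundings of the 89 had a median of 0.03, so the count of 81 adds little. MER44D had 13 higher among 27, Tigger7 35 among 90 and MER44B 28 among 85. MER44B near LOC100288798 gave 60.6 and 56.0 CPM in untreated WT, 60.5 and 57.9 in treated WT, 93.9 and 79.6 in untreated USP18-/- and 138 and 139 in treated USP18-/- cells. It was higher in each USP18-/- library and highest with IFN (1.23, SE 0.09, adjusted p = 1.37e-21, USP18-/- against WT under IFN), while the median within 5 Mb was -0.84.

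Charlie1b 5432 bp upstream of MOV10, an RNA helicase gene with antiviral activity, gave 2.48 and 0.817 CPM in untreated WT, 1.98 and 1.85 in treated WT, 7.77 and 7.80 in untreated USP18-/- and 41.4 and 39.5 in treated USP18-/- cells. Untreated USP18-/- libraries lay above all WT libraries, and treated ones above these. It was 2.27 higher untreated (SE 0.27, adjusted p = 1.82e-11) and 4.39 higher under IFN (SE 0.21, adjusted p = 4.77e-33). Its central 200 bases hold an ISRE match on the minus strand, in capitals as read on the plus strand. They are printed because, among the named copies that are not MER107, they carry the largest increase of treated USP18-/- over treated WT cells.
Charlie1b near MOV10, chr1:112668781-112668980, + strand: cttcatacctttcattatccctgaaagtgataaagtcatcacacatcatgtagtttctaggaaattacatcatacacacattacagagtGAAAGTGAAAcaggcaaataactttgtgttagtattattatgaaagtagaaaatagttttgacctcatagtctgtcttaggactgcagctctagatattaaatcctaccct

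MER5A1 near CREG1, a secreted glycoprotein gene, gave 1.96 and 3.09 CPM in untreated WT, 3.86 and 2.15 in treated WT, 7.77 and 6.54 in untreated USP18-/- and 46.2 and 44.3 in treated USP18-/- cells. The order was that of Charlie1b near MOV10. The increase of treated USP18-/- over treated WT cells was 3.90 (SE 0.18, adjusted p = 6.51e-33), where the median within 5 Mb was 0.62. Tigger19a near MIR3922 gave 1.19 and 1.85 CPM in treated WT and 17.5 and 21.8 in treated USP18-/- cells (3.69, SE 0.25, adjusted p = 1.41e-23).

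Other copies were lower in treated USP18-/- than in treated WT cells. MER58A 6921 bp downstream of the start of MRPL36, a mitochondrial ribosomal protein gene, gave 20.5 and 25.1 CPM in treated WT and 1.33 and 1.41 in treated USP18-/- cells (-4.05, SE 0.23, adjusted p = 3.61e-28). MER20 near NEGR1 gave 7.83 and 8.72 against 0.710 and 0.282 CPM (-4.01, SE 0.34, adjusted p = 6.81e-18), and MER45A upstream of PLCL2 4.36 and 7.28 against 0.355 and 0.469 (-3.78, SE 0.40, adjusted p = 1.58e-13). In each the genotypes did not overlap. MER20 as a name gave 50 lower (13.8%) and 17 higher (4.70%) regions among 362, and MER58A 31 lower (24.4%) and 7 higher (5.51%) among 127. Of all tested regions, 13.4% were lower and 11.3% higher.

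**Figure D5:**
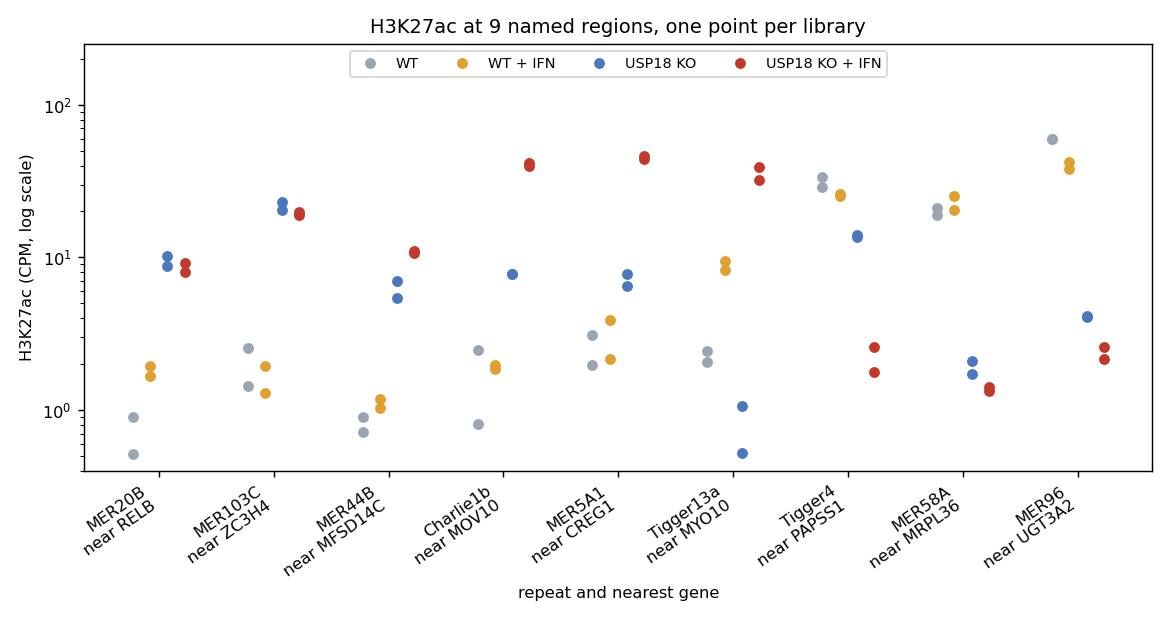
H3K27ac (CPM, log axis) at 9 named regions, with 1 point per library in 4 groups of 2 libraries. USP18-/- libraries lie above WT libraries near RELB, ZC3H4, MFSD14C, MOV10 and CREG1 and below them near PAPSS1, MRPL36 and UGT3A2, and near MYO10 the treated libraries lie above the untreated ones in both genotypes.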

How the data were processed

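H3K27ac ChIP-seq libraries of THP-1 cells were analysed, with 2 libraries in each of 4 groups. The deposited values were estimated counts without normalization, since the authors mapped reads to hg38 with Bowtie2 and used HOMER to count tags, fractions included, in windows of 1000 bp on ATAC-seq peaks merged from 8 lists. Of all values 52.2% were whole, and the rest were rounded to whole counts. The depth, 9046141 to 12935453.5 tags, leaves many of these regions near the minimum count. Columns of fold changes were not used, and the input libraries and the ATAC-seq signal were left out of the analysis. Unmapped value columns numbered 0.

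A region was tested if 2 or more of 8 libraries held 10 counts or more. Tests were run in R 4.3.3 with edgeR 4.0.16 and limma 3.58.1, using TMM factors, 1 mean per group and the quasi-likelihood test, with p-values adjusted by the Benjamini-Hochberg method over all tested regions. CPM values used the TMM-scaled library sizes. SE is an approximate standard error, the size of the log2 fold change divided by the square root of the quasi-likelihood F statistic. The common biological coefficient of variation was 0.0737. DESeq2 1.42.0, sum-of-counts scaling, no filter, no fold threshold, distal regions only, 1 window per chain of overlapping windows, a replicate block and the omission of single libraries were alternatives. Motifs and repeated 32-base words were read from hg38 in Python 3.11.15. Surroundings were tested regions up to 5 Mb on each side.

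Named regions were the 4 largest rises and 4 largest falls per comparison among called regions with a mean of at least 30 counts whose groups did not overlap (this last condition was left out for the difference of the IFN effects), the 3 highest levels and called regions next to listed IFN-stimulated genes. Values of 1 region that met this rule are not reported here. Copies whose sites are printed were added for their sequence and values. Members and lists were chosen with earlier results of these data known. On simulated data for IFN in USP18-/- cells, with 3-fold changes in 200 of 123276 regions, 188 were recovered, among them 124 of 126 whose mean was 30 counts or more, with 4 false calls.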

Additional observations from a re-analysis of the deposited data

Results flagged for a closer look

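The IFN effect differed between genotypes, by edgeR's test of the difference itself, at 146 regions on DNA transposons where it was larger in USP18-/- cells and at 86 where it was smaller. Among the named regions, the difference was 4.04 on the log2 scale for MER107 near SNORA105A, 3.55 for MER107 near LOC729291, 3.54 for Kanga11a near DKFZP586I1420 and 3.52 for Tigger13a near MYO10. It was -2.36 for Tigger4 near PAPSS1, -2.27 for MER1B near AJAP1, -2.06 for Tigger1 near TMEM47 and -1.84 for hAT-N1_Mam near IMPA2. Groups of 2 libraries are too small for a test of single outlying libraries.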

How the results depend on the processing

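By DESeq2 the members lower under IFN in WT cells numbered 0 (1 by edgeR, 133 at an unadjusted p under 0.05), and the difference of the IFN effects was called higher at 94 and lower at 50. With no fold threshold, IFN in WT gave 17 higher and 6 lower, IFN in USP18-/- cells 299 lower, untreated USP18-/- cells 329 higher and the difference 148 lower. Leaving out each library gave 5 to 11 higher and 0 to 1 lower for IFN in WT, 217 to 247 and 134 to 156 for IFN in USP18-/- cells, 154 to 185 and 349 to 425 for untreated USP18-/- against WT, 294 to 340 and 453 to 536 under IFN, and 117 to 142 and 65 to 86 for the difference. Results added after seeing the data ranged from 79 to 91 for rises of regions with an ISRE match, 8 to 11 for MER107, and 51 to 61 and 83 to 90 for Tigger7 with MER44A to MER44D. With the replicate block, IFN in WT gave 10 and 1, IFN in USP18-/- cells 248 and 138, and untreated USP18-/- against WT 185 and 424. It gave 340 and 508 under IFN, and 147 and 85 for the difference. Correlations of same-numbered libraries lay between -0.003 and 0.046. Low counts per region weaken such correlations, so whether same-numbered libraries were prepared together cannot be told from them. Of 218 values of 44 named results under the other alternatives, 217 kept direction and call; the exception was Tigger7 near GPR83 in WT (DESeq2). With libraries left out, 338 of 352 did, and 14 lost the call, each for IFN in WT. The causes were not tested.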

Other observations

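CHOP:C/EBP matches (TTGCATCA, which shares TTGC with the C/EBP motif) were found in 3.09% of regions on DNA transposons and 1.88% of all regions. Of 103 tested regions on DNA transposons with this match, 25 were higher and 7 lower in untreated USP18-/- than in WT cells, and their median fold change was 0.29 (log2). All 2479 tested regions with the match gave 535 higher and 193 lower and a median of 0.31.

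In the same comparison, in which 10.8% of all tested regions were lower and 5.66% higher, TcMar-Mariner gave 10 lower (34.5%) and 1 higher (3.45%) of 29 tested regions. TcMar-Tc2 gave 5 lower (16.7%) and 5 higher (16.7%) of 30. The shares of hAT-Blackjack (12.2% lower and 5.41% higher of 74) and hAT-Tip100 (14.2% and 5.57% of 323) were near those of all tested regions. Under IFN, where 13.4% of all tested regions were lower and 11.3% higher, TcMar-Mariner gave 12 lower (41.4%) and 2 higher, and hAT-Ac 3 lower and 8 higher (29.6%) of 27. By name, MER102b gave 11 lower of 29 (37.9%) and MER63A 9 lower of 27 (33.3%) under IFN. Differences between families were not tested.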
